A study of Mus musculus with 75 samples.

Results

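The step described here is the one that ovarian (XX) mouse germ cells take from E13.5 to E14.5, stages named by embryonic day. It rests on 4 of the 75 libraries of the series, 2 at each stage, taken by their stage and sex labels alone. The E14.5 cells are labelled fetal oocytes, came from embryos carrying Ddx4-RFP Tg/0 and were sorted as RFP-positive. The E13.5 cells are labelled primordial germ cells, came from embryos carrying Dppa3-EGFP Tg/0 and were sorted as GFP-positive. All embryos had the strain label ICR:C57BL/6=1:1, and the embryo groups received no agent. Each transgene is named for a germ cell gene, and because it changes between the stages, stage and sorting reporter cannot be told apart. XY germ cells of the same stages, with the same change of reporter and 2 libraries each, were used to ask where the XX step differs. The labels do not say whether libraries of a group came from separate embryos or litters, and p-values here cover the spread among the sequenced libraries, which may be technical.

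Germ cells of the fetal ovary stop dividing by mitosis around this time and enter the first meiotic prophase, in which sister chromatids are held by meiotic cohesins, homologous chromosomes are joined by the synaptonemal complex, and programmed DNA breaks are repaired by recombination. Before that they are primordial germ cells, which express genes shared with pluripotent stem cells, such as Pou5f1 and Nanog. In the mouse, retinoic acid and BMP signals act upstream of Stra8, a transcription factor needed for meiotic entry, while germ cells of the fetal testis stop in the cell cycle and do not enter meiosis until after birth.

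Expression was measured by SC3-seq, which reads the 3' ends of transcripts, from 1 ng of RNA, and the deposited values are RPM, the reads of a gene scaled to a common total in each library. The 4 XX libraries held an estimated 3.12 to 3.65 M reads and 14853 to 15164 genes above 0, and 3 reads correspond to 0.822 to 0.962 RPM. The log2 values of the replicates correlated at r = 0.976 for E14.5 and 0.981 for E13.5, across genes, which are not independent replicates. Spike-in transcripts summed to 40347 and 39966 RPM at E14.5, against 11238 and 13481 RPM at E13.5, so that the genes made up a smaller part of the material at E14.5 on that scale. The amount of spike-in added is not given in the sources used here, and all changes below are relative to the reads assigned to genes. Scaled to the spike-in, the median of all genes moved by -1.60 on the log2 scale, against -0.08 as deposited, and 347 genes were called higher and 8652 lower at E14.5. In bulk samples like these, fewer cells of a type and less RNA per cell cannot be told apart.

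Genes that mark other cells were measured too. Among 17 markers of gonadal somatic cells, which summed to 33.6 and 38.6 RPM at E14.5, against 24.2 and 16.03 RPM at E13.5, Amh, Sox9, Cyp11a1 and Cyp17a1 were at 0 in all 4 libraries. Of the 10 tested, 2 rose, Gata4 and Bmp2, and 1 fell, Star, but none was called at a pseudocount of 5 RPM. The markers not tested, among them Foxl2, Wt1 and Nr5a1, stayed at or below 4.12 RPM in the 4 libraries. The 11 blood markers matched summed to 55.5 and 114.9 RPM at E14.5, against 29.3 and 27.1 RPM at E13.5, with Hba-a1, an alpha globin, at 20.3 and 47.7 RPM at E14.5, against 7.35 and 7.21 RPM at E13.5. Of the 7 blood markers tested 3 rose and 1, Hbb-y, fell, but none was called without E14.5 replicate 2. Ptprc, a marker of white blood cells, was at 0. The 11 fibroblast markers summed to 221.8 and 250.9 RPM at E14.5, against 499.7 and 462.3 RPM at E13.5. Of the 9 tested, the matrix genes Col1a1, Col3a1 and Dcn rose and Vim, Fn1 and Sparc fell, and without E14.5 replicate 2 only Col3a1 was called higher. Col3a1, a collagen of mesenchyme, had 21.2 and 21.6 RPM at E14.5, against 0.865 and 0.321 RPM at E13.5. The 7 endothelial markers summed to 16.8 and 15.9 RPM at E14.5, against 112.5 and 123.4 RPM at E13.5, nearly all of it Pecam1, which primordial germ cells express too. The part of other cells in the results was not tested. Xist, the RNA that coats the inactive X chromosome, stayed at or below 4.66 RPM in all 4 libraries and was not tested.

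The genes that give the sorting reporters their names behaved differently. Dppa3, a maternal-effect factor that protects DNA methylation in the zygote, had 149 and 81.1 RPM at E14.5, against 2128 and 2249 RPM at E13.5. It fell by 4.30 on the log2 scale (SE 0.29, adjusted p = 2.46e-11). Ddx4, an RNA helicase of the germ cell lineage, had 595 and 570 RPM at E14.5, against 636 and 579 RPM at E13.5, with overlapping libraries and no call (log2 fold change -0.06, SE 0.12, adjusted p = 0.691). In XY germ cells Dppa3 also fell, to 1971 and 2066 RPM at E14.5, against 5449 and 5549.8 RPM at E13.5.

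A total of 4464 of 12567 genes tested (35.5%) changed between E14.5 and E13.5 in XX germ cells, at an adjusted p below 0.05 and a fold change of at least 2 in limma. Of all genes tested, 2072 rose (16.5%) and 2392 fell (19%), and these percentages are the background against which each gene group below is read. Changes were large. Of the genes that rose, 163 changed by a log2 of at least 3, as did 83 of those that fell. The genes that rose held 18.95 and 19.2% of the gene signal at E14.5, against 5.59 and 5.91% at E13.5. The genes that fell held 5.92 and 5.57% at E14.5, against 17.0 and 17.1% at E13.5. A total of 53 genes that rose were at 0 in both E13.5 libraries, and 57 genes that fell were at 0 in both E14.5 libraries.

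Genes of meiotic chromosomes rose almost as a block. Over 6 lists of meiotic genes, with 54 members tested, 43 rose, 2 fell and 9 did not pass, with a median log2 fold change of 2.22, against -0.08 over all genes tested. Scaled to the spike-in, 24 rose and 10 fell, with a median of 0.54, against -1.60 over all genes. Their summed signal was 16192 and 17026 RPM at E14.5, against 4015 and 4238 RPM at E13.5. The members that fell were Etv5 and Zglp1, both transcription regulators. The plot of changes by gene list shows the 6 meiotic lists among the 7 lists with the highest medians.

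**Figure D1:**
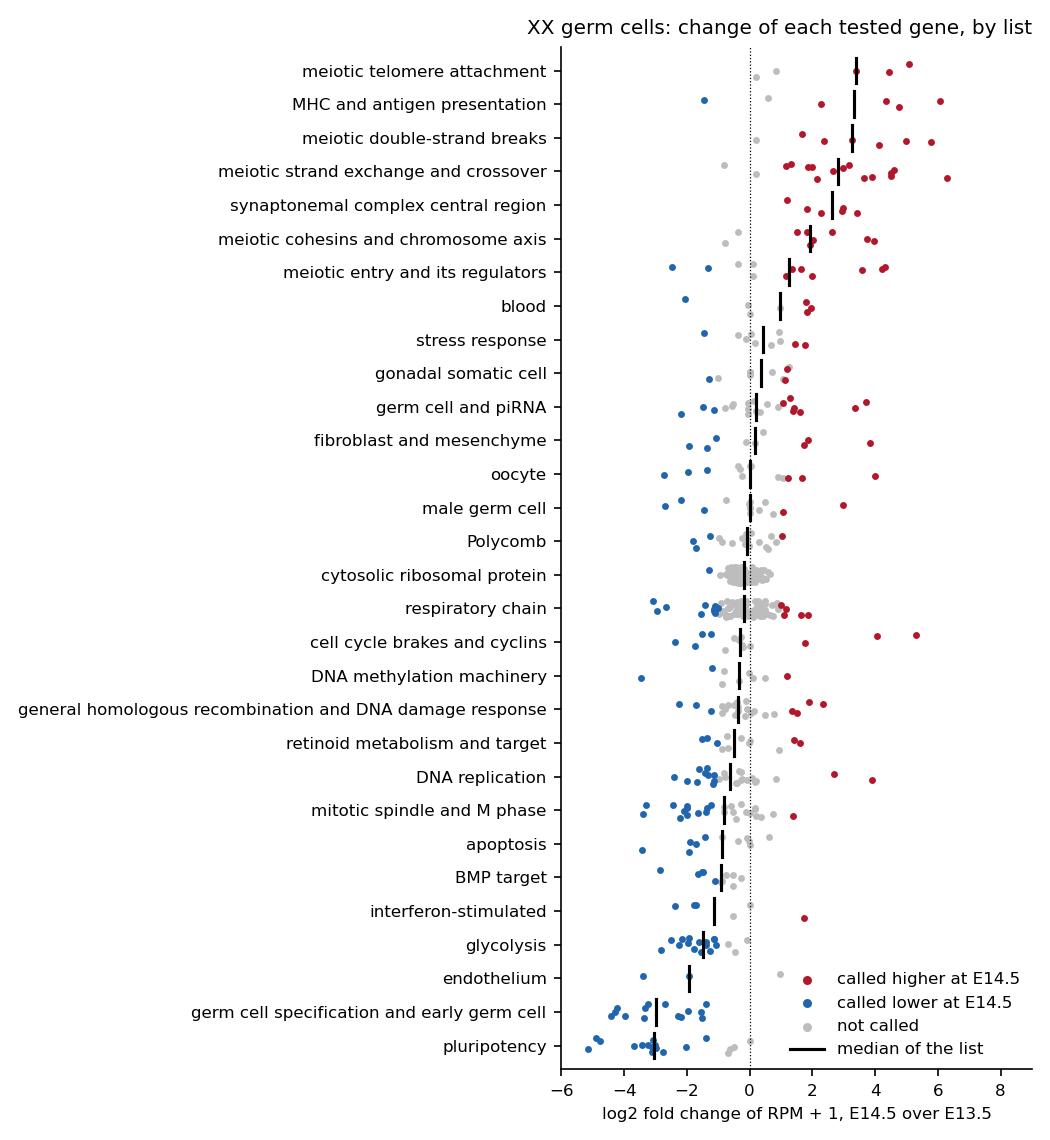
Log2 fold change of RPM + 1, E14.5 over E13.5 in XX germ cells (x axis), for each tested gene of each list (rows, ordered by median). Red and blue points are genes called higher and lower at E14.5, grey points were not called, and black bars are medians. The medians run from 3.39 for telomere attachment at the top to -3.05 for pluripotency at the bottom.

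Among the 12 tested genes of meiotic entry, 7 rose and 2 fell. Stra8 itself was already present at E13.5. It had 641 and 755 RPM at E14.5, against 322 and 303 RPM at E13.5, with no overlap (log2 fold change 1.15, SE 0.44, adjusted p = 0.0287), and the call is not firm. Leaving out any 1 of the 4 libraries ended it, with the adjusted p reaching 0.142 over all alternatives while the log2 fold change stayed between 1.03 and 1.27. Stra8 is named although its change is smaller than those of the other called members, a choice made after its value was seen. Taf7l, a germ cell variant of a basal transcription factor, had 1094 and 1247 RPM at E14.5, against 61.4 and 62.2 RPM at E13.5 (log2 fold change 4.22, SE 0.47, adjusted p = 8.06e-08). Zfp541, a zinc finger protein of meiotic chromatin, had 149 and 173 RPM at E14.5, against 6.92 and 7.37 RPM at E13.5 (log2 fold change 4.31, SE 0.35, adjusted p = 3.91e-10). Both were more than 10 times higher at E14.5 in every library. Mybl1, a transcription factor of meiotic prophase in the testis, had 44.2 and 58.6 RPM at E14.5, against 4.33 and 2.56 RPM at E13.5 (log2 fold change 3.57, SE 0.35, adjusted p = 1.02e-08). Gm1564 (Meioc) and Ythdc2 encode partners that let germ cells leave the mitotic programme. Gm1564 had 335 and 338 RPM at E14.5, against 83.9 and 84 RPM at E13.5 (log2 fold change 1.99, SE 0.34, adjusted p = 3.33e-05). Ythdc2 had 101 and 93.7 RPM at E14.5, against 32 and 43.6 RPM at E13.5 (log2 fold change 1.36, SE 0.26, adjusted p = 0.000132).

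Some genes tied to meiotic entry did not rise. Rec8, the meiotic cohesin subunit that is induced early, had 197 and 190.4 RPM at E14.5, against 246 and 254 RPM at E13.5, and was not called (log2 fold change -0.37, SE 0.33, adjusted p = 0.364). Rbm46, an RNA-binding partner of Ythdc2 and Gm1564 products, had 84.2 and 84.4 RPM at E14.5, against 70.6 and 85.6 RPM at E13.5, with overlapping libraries. Zglp1, a GATA-like regulator of the oogenic programme, had 24.1 and 29.9 RPM at E14.5, against 65.5 and 71.8 RPM at E13.5, and it fell (log2 fold change -1.32, SE 0.32, adjusted p = 0.00134). Etv5 had 18 and 18.4 RPM at E14.5, against 96.6 and 113 RPM at E13.5, and it fell (log2 fold change -2.46, SE 0.25, adjusted p = 2.01e-08). The remaining member not called was Tcfl5, with 99.8 and 122 RPM at E14.5, against 98.9 and 105 RPM at E13.5.

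Of the 9 tested genes of meiotic cohesins and the chromosome axis, 7 rose and none fell. Sycp3 and Sycp2 form the axial element that each chromosome builds along its length. Sycp3 had 1866 and 2131 RPM at E14.5, against 134 and 164 RPM at E13.5 (log2 fold change 3.74, SE 0.25, adjusted p = 2.08e-11). Sycp2 had 402 and 458 RPM at E14.5, against 26.5 and 26.3 RPM at E13.5 (log2 fold change 3.97, SE 0.21, adjusted p = 4.18e-13). In both genes the lower E14.5 library was more than 10 times above the higher E13.5 library. The cohesin subunit Smc1b had 1669 and 1849.8 RPM at E14.5, against 467 and 465 RPM at E13.5 (log2 fold change 1.91, SE 0.15, adjusted p = 1.73e-10). Stag3, another meiotic cohesin subunit, had 882 and 861 RPM at E14.5, against 284 and 321 RPM at E13.5 (log2 fold change 1.53, SE 0.14, adjusted p = 2.88e-09). Hormad1, an axis protein that promotes DNA breaks and checks synapsis, had 845 and 817 RPM at E14.5, against 199.8 and 269 RPM at E13.5 (log2 fold change 1.84, SE 0.17, adjusted p = 4.25e-09). Trip13, the ATPase that removes HORMAD proteins from synapsed axes, went the other way without passing the fold threshold, with 47.4 and 46.8 RPM at E14.5, against 79.3 and 83.4 RPM at E13.5 (log2 fold change -0.77, SE 0.17, adjusted p = 0.000513). Rec8 was the other member not called.

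All 6 genes of the central region of the synaptonemal complex, which zips homologues together, rose. Sycp1, its transverse filament, had 455 and 486 RPM at E14.5, against 85.3 and 108 RPM at E13.5 (log2 fold change 2.28, SE 0.27, adjusted p = 1.41e-07). Syce3 had 182 and 203 RPM at E14.5, against 18.7 and 15.1 RPM at E13.5 (log2 fold change 3.44, SE 0.34, adjusted p = 9.89e-09), and Tex12 had 787 and 799 RPM at E14.5, against 98.9 and 104 RPM at E13.5 (log2 fold change 2.96, SE 0.23, adjusted p = 2.56e-10). The smallest change of the list was that of Syce2, with 943 and 1158 RPM at E14.5, against 477 and 443 RPM at E13.5.

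For the programmed breaks that start recombination, 6 of 7 tested genes rose. Spo11, the enzyme that makes the breaks, had 173 and 108 RPM at E14.5, against 30.9 and 20.8 RPM at E13.5 (log2 fold change 2.39, SE 0.32, adjusted p = 1.2e-06). Mei1, which is required for break formation, was barely measured at E13.5, with 120.5 and 136 RPM at E14.5, against 0.865 and 1.92 RPM at E13.5 (log2 fold change 5.79, SE 0.42, adjusted p = 9.04e-11). Prdm9, the histone methyltransferase that places the breaks in mouse, had 95.4 and 89.3 RPM at E14.5, against 1.73 and 2.24 RPM at E13.5 (log2 fold change 4.97, SE 0.42, adjusted p = 1.1e-09). Ccdc36 (Iho1), a partner of HORMAD1 on the axis, had 122 and 94.8 RPM at E14.5, against 6.34 and 4.17 RPM at E13.5 (log2 fold change 4.14, SE 0.46, adjusted p = 7.58e-08). The exception was 2410076I21Rik (Rec114), with 68.3 and 71.2 RPM at E14.5, against 60.3 and 60.3 RPM at E13.5, which was not called.

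Strand exchange and crossover genes followed, with 14 of 16 tested members higher and none lower. The largest increase of any named gene was that of Rad51ap2, with 160.2 and 177 RPM at E14.5, against 2.6 and 0.321 RPM at E13.5 (log2 fold change 6.28, SE 0.44, adjusted p = 5.08e-11). Dmc1, the meiotic recombinase, had 270.4 and 234 RPM at E14.5, against 36.9 and 40.7 RPM at E13.5 (log2 fold change 2.67, SE 0.36, adjusted p = 1.15e-06). 4930528F23Rik (Meiob) and Spata22 encode a pair that binds single-stranded DNA at meiotic breaks. Meiob had 212 and 207 RPM at E14.5, against 6.92 and 9.62 RPM at E13.5 (log2 fold change 4.52, SE 0.52, adjusted p = 1.03e-07). Spata22 had 35.6 and 32.3 RPM at E14.5, against 0.288 and 0.641 RPM at E13.5 (log2 fold change 4.59, SE 0.36, adjusted p = 2.53e-10). Msh5, which stabilises joint molecules on the way to crossovers, had 88.1 and 99.2 RPM at E14.5, against 7.21 and 6.09 RPM at E13.5 (log2 fold change 3.63, SE 0.33, adjusted p = 2.48e-09), and Hfm1, a helicase of crossover formation, had 328 and 317 RPM at E14.5, against 39.2 and 41.4 RPM at E13.5 (log2 fold change 2.97, SE 0.26, adjusted p = 1.87e-09). Psmc3ip and Mnd1 encode the dimer that assists DMC1, and neither rose. Psmc3ip had 49.8 and 36.7 RPM at E14.5, against 34.9 and 39.1 RPM at E13.5, and Mnd1 had 42.4 and 38.6 RPM at E14.5, against 73.4 and 71.2 RPM at E13.5, lower in both E14.5 libraries but short of the fold threshold (log2 fold change -0.82, SE 0.19, adjusted p = 0.00063).

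The 3 genes called among 5 tested for attaching telomeres to the nuclear envelope rose steeply. The 2 members not tested, 4930430A15Rik and Gm17750, were at 0 in all 4 libraries. Ccdc79 (Terb1), which tethers telomeres, had 140.2 and 144 RPM at E14.5, against 6.06 and 5.13 RPM at E13.5 (log2 fold change 4.44, SE 0.46, adjusted p = 2.28e-08). Spdya, which activates CDK2 at telomeres, had 264 and 290.1 RPM at E14.5, against 8.36 and 6.09 RPM at E13.5 (log2 fold change 5.09, SE 0.48, adjusted p = 4.62e-09). Ccdc155 (Kash5), which links the envelope to dynein, had 33 and 34.8 RPM at E14.5, against 1.44 and 3.53 RPM at E13.5 (log2 fold change 3.39, SE 0.47, adjusted p = 1.81e-06). Sun1, its partner in the inner membrane, had 188 and 167 RPM at E14.5, against 94 and 102 RPM at E13.5, under the fold threshold (log2 fold change 0.85, SE 0.15, adjusted p = 3.9e-05), and Cdk2 had 54.8 and 29.3 RPM at E14.5, against 29.1 and 41.4 RPM at E13.5.

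Repair genes that dividing cells also use were called about as often as all genes, or less. Of 23 tested genes of general homologous recombination and the DNA damage response, 4 rose and 3 fell, with a median of -0.36, and scaled to the spike-in 18 fell and none rose. The damage kinases rose: Atr had 671 and 671 RPM at E14.5, against 117 and 148 RPM at E13.5 (log2 fold change 2.34, SE 0.14, adjusted p = 4.35e-12), and Atm had 301 and 273 RPM at E14.5, against 106 and 96.5 RPM at E13.5 (log2 fold change 1.496, SE 0.18, adjusted p = 1.96e-07). Brca2, which loads recombinases on DNA, had 333 and 329 RPM at E14.5, against 92.3 and 85 RPM at E13.5 (log2 fold change 1.89, SE 0.16, adjusted p = 6.87e-10). Mdc1, which spreads the damage mark on chromatin, had 60.4 and 77.8 RPM at E14.5, against 31.4 and 21.5 RPM at E13.5, a call that ended without E14.5 replicate 2 or E13.5 replicate 2, with an adjusted p of up to 0.0729 over the alternatives. Rpa1, the large subunit of the single-strand binding complex of dividing cells, had 9.72 and 9.04 RPM at E14.5, against 49.9 and 46.5 RPM at E13.5 (log2 fold change -2.24, SE 0.20, adjusted p = 2.87e-09), and Rpa2 had 204 and 191 RPM at E14.5, against 482 and 456 RPM at E13.5 (log2 fold change -1.24, SE 0.13, adjusted p = 1.93e-08). Chek2, a checkpoint kinase, also fell, with 3.83 and 7.94 RPM at E14.5, against 26.2 and 16 RPM at E13.5.

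**Figure D2:**
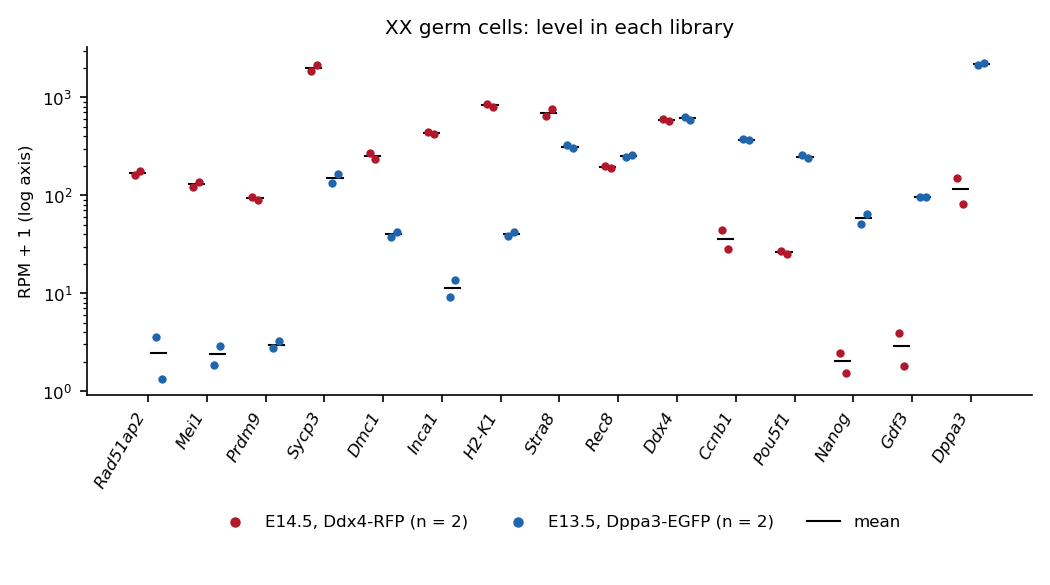
RPM + 1 on a log axis in each library for 15 genes, with E14.5 (red) left of E13.5 (blue) and black bars at the mean of 2 libraries. The genes from Rad51ap2 to Stra8 on the left stand higher at E14.5. Rec8 is slightly lower and was not called, and Ddx4 is level. The genes from Ccnb1 to Dppa3 on the right stand lower at E14.5.

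Pluripotency and early germ cell genes fell. Of 18 tested genes of the pluripotency network, 14 fell and none rose, with a median of -3.05. Pou5f1, the transcription factor OCT4, had 26.2 and 24 RPM at E14.5, against 256 and 239 RPM at E13.5 (log2 fold change -3.25, SE 0.11, adjusted p = 4.44e-16). Nanog had 1.47 and 0.548 RPM at E14.5, against 50.2 and 63.8 RPM at E13.5 (log2 fold change -4.88, SE 0.25, adjusted p = 2.13e-13). Sox2, the partner of OCT4, had 25.3 and 17.5 RPM at E14.5, against 194 and 189 RPM at E13.5 (log2 fold change -3.12, SE 0.28, adjusted p = 2.59e-09). Gdf3, a TGF-beta family ligand, showed the largest decrease of any named gene, with 2.94 and 0.822 RPM at E14.5, against 94 and 94.6 RPM at E13.5 (log2 fold change -5.15, SE 0.23, adjusted p = 2.68e-14). Tcl1, a coactivator of the kinase AKT, had 2.94 and 2.47 RPM at E14.5, against 101 and 99.7 RPM at E13.5 (log2 fold change -4.77, SE 0.16, adjusted p = 2.42e-16). Utf1, a chromatin protein of stem cells, had 33.6 and 23.6 RPM at E14.5, against 298 and 332 RPM at E13.5 (log2 fold change -3.44, SE 0.14, adjusted p = 1.09e-14). In each of these genes both E14.5 libraries lay far below both E13.5 libraries. The 4 members not called were Klf4, Tfcp2l1, Zfp42 and Tdgf1, the last at 0 in all 4 libraries. Tdh, the threonine dehydrogenase of mouse stem cells, fell too, with 12.4 and 17.5 RPM at E14.5, against 199.5 and 207 RPM at E13.5.

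All 14 tested genes of germ cell specification and the early germ cell fell, with a median of -2.97. The specification factors Prdm14, Tfap2c and Prdm1 work together in nascent primordial germ cells. Prdm14 had 2.65 and 1.1 RPM at E14.5, against 40.1 and 43.9 RPM at E13.5 (log2 fold change -3.96, SE 0.30, adjusted p = 1.45e-10). Tfap2c had 4.12 and 2.19 RPM at E14.5, against 72.4 and 77.9 RPM at E13.5 (log2 fold change -4.23, SE 0.25, adjusted p = 2.99e-12). Prdm1 had 10.6 and 7.67 RPM at E14.5, against 41.8 and 46.8 RPM at E13.5 (log2 fold change -2.17, SE 0.24, adjusted p = 5.94e-08). The RNA-binding partners Nanos3 and Dnd1 protect primordial germ cells from death. Dnd1 had 20.9 and 15.9 RPM at E14.5, against 183 and 202 RPM at E13.5 (log2 fold change -3.33, SE 0.25, adjusted p = 1.43e-10), and Nanos3 had 0 and 0.274 RPM at E14.5, against 6.34 and 6.41 RPM at E13.5 (log2 fold change -2.71, SE 0.30, adjusted p = 7.38e-08). Dppa2 and Dppa4, which act as a dimer in chromatin, both fell. Dppa2 had 1.47 and 1.1 RPM at E14.5, against 46.7 and 47.8 RPM at E13.5 (log2 fold change -4.41, SE 0.29, adjusted p = 1.59e-11), and Dppa4 had 24.7 and 17.8 RPM at E14.5, against 203 and 206 RPM at E13.5 (log2 fold change -3.23, SE 0.16, adjusted p = 2.32e-13). Kit, the receptor that supports germ cell survival, had 52.7 and 29.6 RPM at E14.5, against 112 and 218 RPM at E13.5 (log2 fold change -1.95, SE 0.28, adjusted p = 3.65e-06).

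Beside these lists, the 20 largest decreases by the naming rule held Phlda2, Pfkfb3, Elovl6, Eif4ebp1 and Socs2. Phlda2, an imprinted growth regulator, had 51.8 and 26.6 RPM at E14.5, against 528 and 559 RPM at E13.5 (log2 fold change -3.83, SE 0.44, adjusted p = 1.12e-07). Eif4ebp1, an inhibitor of cap-dependent translation, had 16.2 and 7.4 RPM at E14.5, against 151 and 143 RPM at E13.5 (log2 fold change -3.62, SE 0.21, adjusted p = 1.6e-12). Socs2, a feedback inhibitor of cytokine signalling, had 15.3 and 6.85 RPM at E14.5, against 139.6 and 136 RPM at E13.5 (log2 fold change -3.62, SE 0.24, adjusted p = 2.07e-11). Elovl6, a fatty acid elongase, had 7.95 and 2.19 RPM at E14.5, against 67.2 and 66.4 RPM at E13.5 (log2 fold change -3.66, SE 0.28, adjusted p = 1.5e-10). Khdc1a, a member of a family of similar copies whose reads may be shared, had 0.294 and 1.1 RPM at E14.5, against 32.3 and 34.7 RPM at E13.5. The other members of the 20 not yet named were Calcoco2, Cpsf4l, D7Ertd143e, Enpp3, Arid5b and L1td1, with log2 fold changes of -4.41, -4.07, -3.91, -3.76, -3.72 and -3.72.

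The 20 largest increases held genes outside the meiotic lists too. Lypd4 had 193 and 150.4 RPM at E14.5, against 5.19 and 1.6 RPM at E13.5 (log2 fold change 5.42, SE 0.40, adjusted p = 9.22e-11). Rhox13, an X-linked homeobox gene of germ cells, had 305 and 256 RPM at E14.5, against 12.1 and 6.73 RPM at E13.5 (log2 fold change 4.80, SE 0.39, adjusted p = 5.91e-10). Zfp672, a zinc finger gene, had 237 and 259.9 RPM at E14.5, against 9.52 and 7.37 RPM at E13.5 (log2 fold change 4.73, SE 0.45, adjusted p = 5.46e-09). Mtl5, which encodes the cysteine-rich protein tesmin, had 99 and 93.4 RPM at E14.5, against 4.33 and 2.89 RPM at E13.5 (log2 fold change 4.42, SE 0.40, adjusted p = 2.52e-09). Tktl1, a transketolase-like gene, had 257 and 264 RPM at E14.5, against 11.53 and 12.8 RPM at E13.5 (log2 fold change 4.31, SE 0.31, adjusted p = 7.81e-11). Grk4, Rsph10b2 and Aspa were in it as well, with log2 fold changes of 5.12, 4.74 and 4.68.

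Genes of MHC proteins, which present peptides at the cell surface, were also among the largest increases. H2-K1 had 863 and 803 RPM at E14.5, against 37.8 and 41.4 RPM at E13.5 (log2 fold change 4.36, SE 0.41, adjusted p = 5.23e-09). H2-D1 had 67.5 and 83.3 RPM at E14.5, against 1.19 and 2.56 RPM at E13.5 (log2 fold change 4.77, SE 0.50, adjusted p = 2.64e-08). H2-Ab1, a class II chain, had 142 and 113 RPM at E14.5, against 1.73 and 0.321 RPM at E13.5 (log2 fold change 6.07, SE 0.43, adjusted p = 4.85e-11). B2m, the light chain of class I molecules, had 83 and 97 RPM at E14.5, against 14.4 and 21.5 RPM at E13.5 (log2 fold change 2.29, SE 0.39, adjusted p = 2.53e-05). MHC genes have similar copies, and reads may be shared among them. Of 6 tested genes of antigen presentation, 4 rose, and Tapbp, which loads peptides, fell, with 2.06 and 3.29 RPM at E14.5, against 9.8 and 8.02 RPM at E13.5 (log2 fold change -1.45, SE 0.28, adjusted p = 0.000128), a call that ended at a pseudocount of 5 RPM. Tap2, Psmb8, Nlrc5 and Ciita were at 0 in all 4 libraries. H2-Aa and Psmb9 were not tested either and stayed at or below 2.19 RPM in the 4 libraries. Of 6 tested interferon-stimulated genes, 3 fell and 1 rose, and none rose without E13.5 replicate 2. Irf1, an interferon-induced transcription factor, had 8.25 and 8.77 RPM at E14.5, against 41.8 and 54.8 RPM at E13.5 (log2 fold change -2.36, SE 0.19, adjusted p = 3.72e-10).

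Of 26 tested genes of the mitotic spindle and M phase, 12 fell and 1 rose. Ccnb1, the main mitotic cyclin, had 43 and 27.4 RPM at E14.5, against 373 and 363 RPM at E13.5 (log2 fold change -3.38, SE 0.15, adjusted p = 2.68e-14). Its kinase Cdk1 had 33.6 and 37.5 RPM at E14.5, against 136 and 151 RPM at E13.5 (log2 fold change -1.98, SE 0.18, adjusted p = 4.25e-09). Aurkb, the kinase of the chromosomal passenger complex, had 4.71 and 4.11 RPM at E14.5, against 44.4 and 60.6 RPM at E13.5 (log2 fold change -3.29, SE 0.24, adjusted p = 6.18e-11), and Plk1 had 24.1 and 14 RPM at E14.5, against 99.5 and 109 RPM at E13.5 (log2 fold change -2.44, SE 0.20, adjusted p = 7.01e-10). As deposited, several markers of cycling cells were at similar levels in both stages. Scaled to the spike-in, 24 genes of the list fell and none rose, with Mki67 at a log2 of -1.33 and Top2a at -1.54. Mki67 had 181 and 202 RPM at E14.5, against 153 and 143 RPM at E13.5 (log2 fold change 0.37, SE 0.18, adjusted p = 0.0807), and Top2a, a topoisomerase that disentangles chromosomes, had 516 and 537 RPM at E14.5, against 470.3 and 469.7 RPM at E13.5 (log2 fold change 0.16, SE 0.11, adjusted p = 0.231). Bub1, a kinase of the spindle checkpoint, was the member that rose, with 597 and 594 RPM at E14.5, against 212 and 241 RPM at E13.5 (log2 fold change 1.39, SE 0.12, adjusted p = 6.74e-10).

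Of 26 tested genes of DNA replication, 10 fell and 2 rose. In the MCM helicase 5 of 6 subunits fell, such as Mcm7, with 121 and 141 RPM at E14.5, against 514 and 534 RPM at E13.5 (log2 fold change -1.997, SE 0.11, adjusted p = 4.18e-13), and Mcm2, with 142 and 117 RPM at E14.5, against 415 and 416 RPM at E13.5 (log2 fold change -1.68, SE 0.11, adjusted p = 8.24e-12), whereas Mcm5 had 382 and 379 RPM at E14.5, against 354 and 311 RPM at E13.5 and was not called. Ccne2, an S phase cyclin, rose, with 44.8 and 33.7 RPM at E14.5, against 1.15 and 2.24 RPM at E13.5 (log2 fold change 3.91, SE 0.35, adjusted p = 2.76e-09). Gins3, a subunit of the replicative helicase, had 75.4 and 89 RPM at E14.5, against 17 and 8.02 RPM at E13.5 (log2 fold change 2.70, SE 0.33, adjusted p = 2.41e-07). Tyms, which makes thymidylate, had 14.7 and 20.3 RPM at E14.5, against 97.7 and 93.9 RPM at E13.5 (log2 fold change -2.40, SE 0.21, adjusted p = 1.59e-09). Pcna, the sliding clamp, had 675 and 616 RPM at E14.5, against 726 and 833 RPM at E13.5 and did not pass the fold threshold.

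Of 14 tested cell cycle brakes and cyclins, 3 rose and 4 fell. Inca1, an inhibitor of cyclin A1 and CDK2 complexes, had 439 and 425 RPM at E14.5, against 8.07 and 12.504 RPM at E13.5 (log2 fold change 5.29, SE 0.55, adjusted p = 2.65e-08). Ccnb3, a cyclin of meiosis, had 58 and 52.3 RPM at E14.5, against 1.73 and 3.21 RPM at E13.5 (log2 fold change 4.05, SE 0.41, adjusted p = 1.53e-08). Cdkn1a, the inhibitor p21, had 8.25 and 7.67 RPM at E14.5, against 50.5 and 41 RPM at E13.5 (log2 fold change -2.38, SE 0.35, adjusted p = 4.34e-06), and Ccna2 had 109 and 89 RPM at E14.5, against 319.8 and 344 RPM at E13.5 (log2 fold change -1.74, SE 0.13, adjusted p = 1.09e-10). Cdkn1b, the inhibitor p27, had 0 and 0.274 RPM at E14.5, against 1.15 and 2.24 RPM at E13.5, which is a few reads, and its call ended in 4 alternatives.

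Glycolysis genes fell nearly together, 15 of 18 tested and none higher, with a median of -1.48. Slc2a3, a glucose transporter, had 10 and 12.9 RPM at E14.5, against 91.7 and 82.7 RPM at E13.5 (log2 fold change -2.83, SE 0.14, adjusted p = 1.07e-13). Eno1 had 36.5 and 26.4 RPM at E14.5, against 190 and 172 RPM at E13.5 (log2 fold change -2.50, SE 0.11, adjusted p = 2.68e-14), and Pgam1, the enzyme before it, had 57.1 and 44.9 RPM at E14.5, against 241 and 253 RPM at E13.5 (log2 fold change -2.26, SE 0.12, adjusted p = 4.02e-13). Gapdh had 656 and 575 RPM at E14.5, against 1333 and 1353 RPM at E13.5 (log2 fold change -1.13, SE 0.12, adjusted p = 2.62e-08). Pfkfb3, whose product raises the activator of phosphofructokinase, was among the 20 largest decreases, with 2.65 and 0 RPM at E14.5, against 24.2 and 31.7 RPM at E13.5 (log2 fold change -3.91, SE 0.40, adjusted p = 1.82e-08). Of 83 cytosolic ribosomal protein genes tested, 1 fell and none rose, with 2 lower without E14.5 replicate 1. The gene that fell, Rpl38, had 144 and 168 RPM at E14.5, against 464 and 320.3 RPM at E13.5. Of 86 tested genes matched to the respiratory chain, 5 rose and 10 fell. Cox7b, a subunit of complex IV, had 102 and 67.7 RPM at E14.5, against 792 and 647 RPM at E13.5 (log2 fold change -3.09, SE 0.15, adjusted p = 1.1e-13), and Ndufa1, a subunit of complex I, had 297 and 405 RPM at E14.5, against 114 and 77.9 RPM at E13.5 (log2 fold change 1.87, SE 0.25, adjusted p = 1.29e-06).

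Targets of the signals upstream of meiotic entry were counted next. Of 11 tested BMP targets, 5 fell and none rose. Id1, a direct BMP target, had 209 and 249 RPM at E14.5, against 263 and 296 RPM at E13.5 (log2 fold change -0.29, SE 0.30, adjusted p = 0.431). Gata2, a regulator induced by BMP in XX germ cells, had 89.2 and 82.7 RPM at E14.5, against 233 and 253 RPM at E13.5 (log2 fold change -1.49, SE 0.31, adjusted p = 0.000316). Msx2 had 16.2 and 21.1 RPM at E14.5, against 42.4 and 85 RPM at E13.5 (log2 fold change -1.65, SE 0.37, adjusted p = 0.000659). Of 12 tested genes of retinoid metabolism and response, 2 rose and 3 fell. Rdh10, which makes retinaldehyde, had 53.9 and 59.4 RPM at E14.5, against 22.8 and 18.3 RPM at E13.5 (log2 fold change 1.43, SE 0.29, adjusted p = 0.000181). The retinoid counts rest on single libraries, since 1 gene fell without E14.5 replicate 2, while 3 rose and 4 fell without E14.5 replicate 1. Rarb, a receptor that retinoic acid induces, was at or below 4.49 RPM in all 4 libraries and was not tested.

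Of 21 tested genes of germ cells and the piRNA pathway, 7 rose and 3 fell. The same 7 rose in XY germ cells as well, among 16 of the list that rose there. Over the 21 genes the XX step was below the XY step for 12 and above it for none. Tex15, which acts in recombination and transposon silencing in the testis, had 1164 and 1364 RPM at E14.5, against 116 and 129.8 RPM at E13.5 (log2 fold change 3.35, SE 0.15, adjusted p = 2.68e-14). Tex101, a surface protein of germ cells, had 944 and 972 RPM at E14.5, against 74.1 and 69.9 RPM at E13.5 (log2 fold change 3.72, SE 0.27, adjusted p = 6.07e-11), and Mael, a piRNA factor, had 892 and 805 RPM at E14.5, against 336 and 356 RPM at E13.5 (log2 fold change 1.29, SE 0.15, adjusted p = 1.93e-07). Dazl, a regulator of germ cell translation, had 2365 and 2017 RPM at E14.5, against 1659 and 1819.8 RPM at E13.5 and was not called. Of 13 tested oocyte genes, 3 rose and 3 fell. Figla, which directs primordial follicle formation, had 162 and 143 RPM at E14.5, against 8.94 and 8.34 RPM at E13.5 (log2 fold change 3.99, SE 0.53, adjusted p = 9.8e-07), and Ybx2, which stores maternal RNA, had 168 and 207 RPM at E14.5, against 83.6 and 73.7 RPM at E13.5 (log2 fold change 1.24, SE 0.22, adjusted p = 4.65e-05). Of genes of growing oocytes, Zp1, Zp2 and Zar1 were at 0 in all 4 libraries, and Nobox had 1.77 and 4.66 RPM at E14.5, against 0.288 and 0.321 RPM at E13.5.

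Of 11 tested apoptosis genes, 5 fell and none rose. Trp53, the tumour suppressor p53, had 5.3 and 3.56 RPM at E14.5, against 45.8 and 69.9 RPM at E13.5 (log2 fold change -3.43, SE 0.64, adjusted p = 7.95e-05), and Bax, an effector of mitochondrial death, had 9.42 and 11.2 RPM at E14.5, against 39.8 and 42 RPM at E13.5 (log2 fold change -1.89, SE 0.23, adjusted p = 3.19e-07). Among 9 tested genes of the DNA methylation machinery, Tet1, which oxidises methylcytosine, had 3.53 and 6.3 RPM at E14.5, against 57.4 and 68.9 RPM at E13.5 (log2 fold change -3.47, SE 0.28, adjusted p = 3.72e-10), and Dnmt1, the maintenance enzyme, had 202 and 165 RPM at E14.5, against 224 and 241 RPM at E13.5, without a call. Of 18 tested Polycomb genes, 1 rose and 3 fell. Mga, a subunit of the PRC1.6 complex that holds meiotic genes silent, had 95.1 and 102 RPM at E14.5, against 40.9 and 56.4 RPM at E13.5 (log2 fold change 1.02, SE 0.18, adjusted p = 3.75e-05), a call that ended in 4 of 13 alternatives. Its partner E2f6 had 3.24 and 6.85 RPM at E14.5, against 11.53 and 14.4 RPM at E13.5 (log2 fold change -1.27, SE 0.28, adjusted p = 0.000531), a call that ended in 3 alternatives.

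The XY step has the same change of reporter, and 4060 genes changed in it (32.3%), 2389 higher (19%) and 1671 lower (13.3%). The XY split depends on the scaling, with 2039 higher and 2173 lower after quantile normalization. Of the 2072 genes that rose in XX germ cells, 620 rose in XY germ cells as well, 98 fell there and 1354 were not called. Of the 2392 that fell, 632 fell in XY germ cells, 245 rose there and 1515 were not called. The difference of the steps was tested directly, as an interaction term, and 4837 genes (38.5%) passed, 1998 with the XX step above the XY step (15.9%) and 2839 with it below (22.6%). For 1055 of the genes that rose in XX germ cells, or 50.9%, the XX step was above the XY step. For 1310 of those that fell, or 54.8%, it was below. These genes were chosen by the XX step, which is part of the difference. Their shares therefore cannot be read against those over all genes.

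Most meiotic genes differed between the steps. Over the 54 tested members of the 6 meiotic lists, the XX step was above the XY step for 39 and below it for 3. In XY germ cells 21 of them rose and 6 fell, with a median of 0.57, and their summed signal was 2639 and 2920 RPM at E14.5, against 2096 and 2111 RPM at E13.5. Mei1 had 0.603 and 0.286 RPM at E14.5 in XY germ cells, against 0 and 0.656 RPM at E13.5, and the steps differed by 5.63 on the log2 scale (SE 0.60, adjusted p = 8.25e-08). Inca1 had 0.603 and 4.86 RPM at E14.5 in XY germ cells, against 2.54 and 1.64 RPM at E13.5, a difference of 5.29 (SE 0.78, adjusted p = 7.45e-06). H2-Ab1 differed by 5.06 (SE 0.60, adjusted p = 4.17e-07), Mtl5 by 4.76 and Ccne2 by 4.74. Mei1, H2-Ab1 and Ccne2 passed the filter on low values only through XX libraries of E14.5 and E15.5, where they are high. Their p-values carry that limit. In each of the cohesin, central region and double-strand break lists, 1 gene rose in XX germ cells and fell in XY germ cells. Syce2 and Smc1b were among them. Syce2 in XY germ cells had 55.4 and 61.4 RPM at E14.5, against 223 and 252 RPM at E13.5 (log2 fold change -2.01, SE 0.10, adjusted p = 3.72e-13), and Smc1b had 67.2 and 68 RPM at E14.5, against 135 and 139.5 RPM at E13.5 (log2 fold change -1.01, SE 0.15, adjusted p = 3.72e-06). The list of meiotic entry stood apart from the pooled count. There the difference of steps was not called for 7 of 12 genes, with the XX step above for 3 and below for 2. Stra8 was among the 7 (adjusted p = 0.543). Its fold change in XY germ cells was called too, from a far lower level, with 5.72 and 8.57 RPM at E14.5, against 1.27 and 1.97 RPM at E13.5 (log2 fold change 1.63, SE 0.44, adjusted p = 0.00313).

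**Figure D3:**
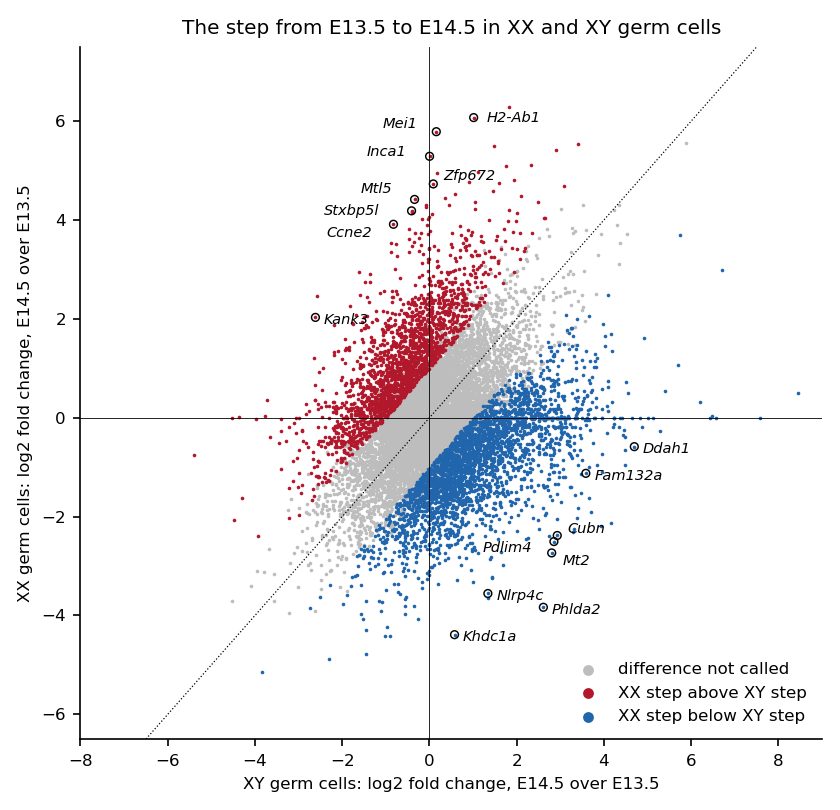
Log2 fold change from E13.5 to E14.5 for 12567 genes, in XX germ cells (y axis) and XY germ cells (x axis). Red and blue points are genes whose XX step was called above or below the XY step, grey points were not called, the dotted line marks equal steps, and circles mark the 16 genes named for the largest differences. Mei1 and Inca1 stand high on the y axis near 0 on the x axis.

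Among pluripotency genes, 10 fell in both sexes, and the XX step was below the XY step for 10 and above it for 3. Pou5f1 in XY germ cells had 329.6 and 309 RPM at E14.5, against 311 and 351 RPM at E13.5 (log2 fold change -0.05, SE 0.11, adjusted p = 0.728), and the steps differed by -3.20 (SE 0.16, adjusted p = 7.46e-13). Utf1 and Sall4 likewise differed, by -3.26 and -3.08. Tdh fell in both, with 13.3 and 15.7 RPM at E14.5, against 187 and 177 RPM at E13.5 in XY germ cells, and the steps were not shown to differ (adjusted p = 0.635). Klf2 and Klf5 fell further in XY germ cells, with differences of 1.62 and 1.18, and the largest positive difference of the list was 3.06. In XY germ cells 2 members of the pluripotency list rose, neither of them called in XX germ cells. Of the list of germ cell specification and the early germ cell, Dppa4 and Nanos3 rose in XY germ cells. Dppa4 did so at log2 fold change 1.44, SE 0.16, adjusted p = 1.35e-07, and Nanos3 at log2 fold change 1.65, SE 0.30, adjusted p = 7.64e-05.

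Among genes that average 20 RPM or more in 1 of the XX groups and whose XX libraries do not overlap, the XX step lay farthest below the XY step for Phlda2, which in XY germ cells had 13.6 and 19.7 RPM at E14.5, against 0.635 and 3.94 RPM at E13.5 (log2 fold change 2.61, SE 0.44, adjusted p = 2.74e-05), a difference of -6.45 (SE 0.62, adjusted p = 1.94e-08). Mt2, a metallothionein that binds metal ions, had 9.42 and 5.2 RPM at E14.5, against 60.6 and 45.5 RPM at E13.5 in XX germ cells. In XY germ cells Mt2 had 71.4 and 109 RPM at E14.5, against 14.6 and 9.52 RPM at E13.5, and the steps differed by -5.54 (SE 0.34, adjusted p = 1.96e-11). Male germ cell genes are given by level only, since members could pass the filter on low values through the XY libraries alone. The 14 genes of that list summed to 33.6 and 37.8 RPM at E14.5, against 32.3 and 25.3 RPM at E13.5 in XX germ cells, where 3 of them were at 0 in all 4 libraries, and to 2615 and 2759 RPM at E14.5, against 645.2 and 644.8 RPM at E13.5 in XY germ cells. Dnmt3l, which guides DNA methylation in the fetal testis, had 0.294 and 0.548 RPM at E14.5, against 0 and 0 RPM at E13.5 in XX germ cells. In XY germ cells Dnmt3l had 321 and 379 RPM at E14.5, against 0 and 0 RPM at E13.5.

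In the M phase list 10 genes fell in both sexes, among them Plk1, Cdk1 and Ube2c. The XX step was above the XY step for 7 of its 26 genes and below it for 2, and for 3 and 1 of the 14 cell cycle brakes and cyclins, shares below the 38.5% over all genes. Mki67 and Top2a were among the 7. Mki67 in XY germ cells had 15.4 and 10.3 RPM at E14.5, against 162 and 194 RPM at E13.5 (log2 fold change -3.71, SE 0.18, adjusted p = 9.46e-14), and the steps differed by 4.08 (SE 0.25, adjusted p = 1.5e-11). Top2a had 116 and 149 RPM at E14.5, against 469.7 and 453 RPM at E13.5 in XY germ cells, a difference of 1.97 (SE 0.16, adjusted p = 1.51e-09). Over the replication list 15 of 26 genes fell in XY germ cells, and the XX step was above the XY step for 12 and below it for 3. Of the glycolysis genes, 6 of 18 fell and 3 rose in XY germ cells, and the XX step was below the XY step for 8 and above it for none. Slc2a3 in XY germ cells had 114 and 110.3 RPM at E14.5, against 60.3 and 63.3 RPM at E13.5, and the steps differed by -3.68 (SE 0.19, adjusted p = 1.8e-12).

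Stages on either side place the step in a course. In XX germ cells Sycp3 averaged 45.4 ± 3.7, 149 ± 21.4, 1999 ± 188 and 2521 ± 12.6 RPM over the stages from E12.5 to E15.5 (SD, n = 2 each). Prdm9 averaged 0.179 ± 0.174, 1.99 ± 0.364, 92.4 ± 4.33 and 111 ± 13 RPM over the same stages. Stra8 had its highest mean at E14.5, with 38 ± 4.7, 313 ± 13.7, 698 ± 80.7 and 303 ± 148 RPM in the same order. Pou5f1 averaged 349 ± 16.2, 247 ± 11.8, 25.1 ± 1.59 and 9.73 ± 0.417 RPM in that order, and the E12.5 and E13.5 cells share the Dppa3-EGFP reporter. Dppa3 averaged 2808 ± 112, 2188 ± 85.4, 115 ± 48 and 24.6 ± 18.6 RPM.

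**Figure D4:**
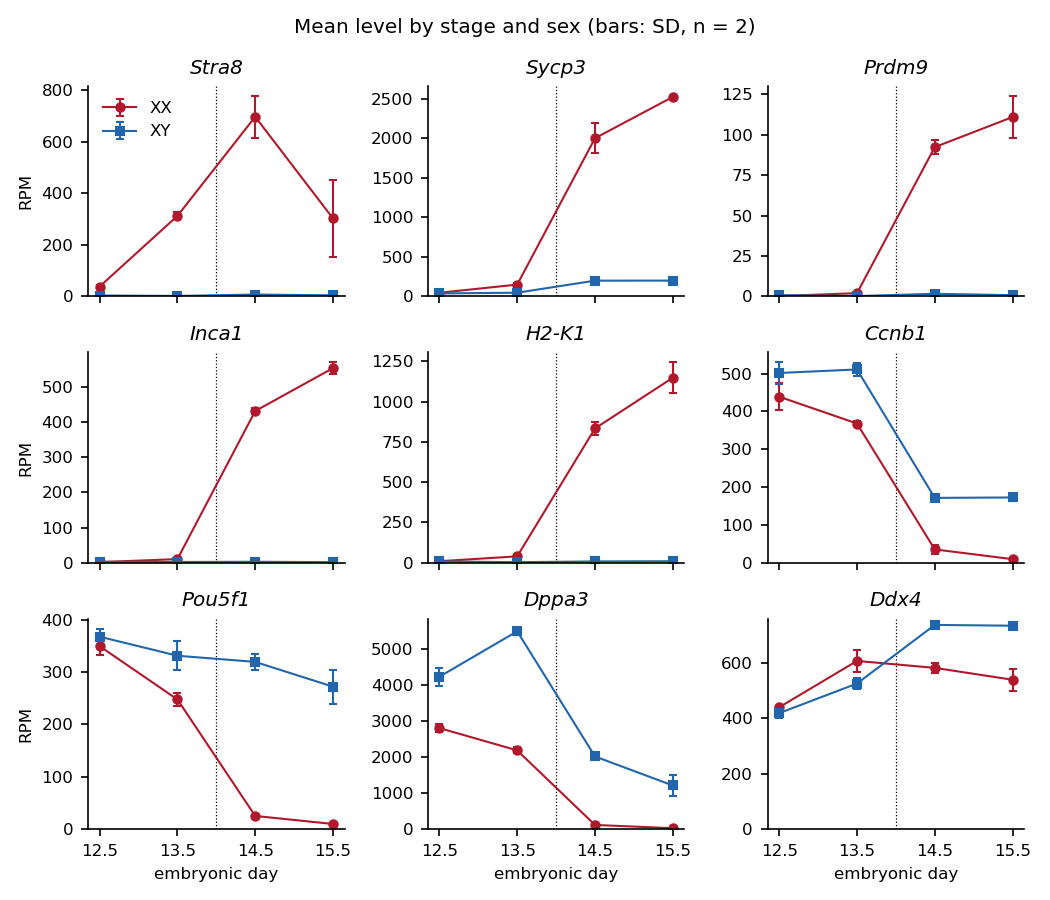
Mean RPM (y axis, each panel on its own scale from 0) at each stage from E12.5 to E15.5 (x axis) in XX (red circles) and XY (blue squares) germ cells, with bars for the SD of 2 libraries. The dotted line marks the change of reporter, from Dppa3-EGFP on its left to Ddx4-RFP on its right. Sycp3, Prdm9, Inca1 and H2-K1 are high in XX cells from E14.5, and in XX cells Pou5f1, Ccnb1 and Dppa3 drop across the line.

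STRA8 is known from mouse germ cells to bind promoters at the motif CNCCTCAG. The 250 bases before and 50 bases after the start in RefSeq (GRCm38.p6, first entry of each gene) were searched for it on both strands. It was found in 260 of 1670 promoters of genes that rose (15.6%), in 122 of 1847 of genes that fell (6.61%), in 539 of 6256 of tested genes not called (8.62%) and in 2154 of all 27025 promoters (7.97%). Of the 17 promoters available for the 20 largest increases 4 held it (23.5%). The E-box CACGTG, the site of the MAX partner complexes, was in 10.4% of promoters of genes that rose, 12.2% of genes that fell and 10.4% of genes not called. The letters TCCCGC, a core of the E2F6 motif, were in 35.2, 38.4 and 37% of the same groups. Promoters of the meiotic lists held all 3 motifs more often than the 9773 promoters of tested genes. Of the 46 available for tested members, whether they rose or not, 23.9% held the STRA8 motif, 23.9% the E-box and 60.9% the E2F6 letters, against 9.42%, 10.7% and 37% of tested genes. For the 35 available for members that rose, the shares were 20%, 22.9% and 57.1%. A match is a description of the letters and shows no binding.

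**Figure D5:**
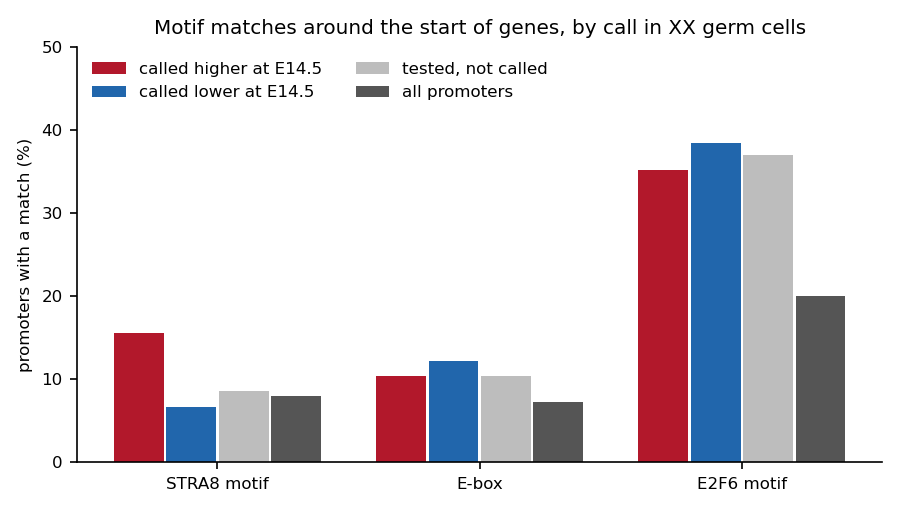
Share of promoters with at least 1 match (y axis, percent) for 3 motifs (x axis), among genes called higher (red) or lower (blue) at E14.5, tested genes not called (light grey) and all promoters (dark grey). The STRA8 motif was in 15.6% of promoters of genes called higher, against 6.61% for genes called lower, while the shares for the other motifs lie within 4 percentage points among tested genes.

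Part of the Inca1 promoter is shown because Inca1 rose in XX germ cells, was not called in XY germ cells and holds matches to the STRA8 motif. They begin 142 and 16 bases before the listed start. The RefSeq gene extends 130 bases upstream of that start, so the second match lies inside the gene as annotated. The stretch gives the 120 promoter bases outside it, at chr11:70700286-70700405 (GRCm38.p6), 5′ to 3′ on the minus strand, the strand of the gene, with the reverse complement of the motif in capitals.
Inca1: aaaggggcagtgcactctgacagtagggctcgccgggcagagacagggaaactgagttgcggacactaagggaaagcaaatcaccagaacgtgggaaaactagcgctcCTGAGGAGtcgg

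Of 534 X-linked genes tested 25.5% rose and 17.4% fell, with a median log2 fold change of 0.09, against 16.15% and 19.06% of 11650 autosomal genes, with a median of -0.08. In XY germ cells the medians were 0.34 for X-linked and 0.07 for autosomal genes. These shares describe the genes of the same libraries and were not tested.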

How the data were processed

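Per the submitters' processing notes, the tools were TopHat 1.4.1, Cufflinks 2.2.0, Bowtie 1.0.1 and cutadapt 1.11, with the mouse build mm10. The deposited table holds a signal in RPM, scaled by the authors to reads assigned to genes per the labels, for 26218 genes and 96 spike-in transcripts. Depth was estimated from the RPM of a single read. The low values were whole reads in 88.6 to 91.7% of cases (tolerance 0.05 reads), too few for a count test, and intervals of single values cover counting error only. Values under 0.001 RPM (759 in the embryo) were set to 0.

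Values were analysed as log2(RPM + 1), which understates changes of low genes. Genes with at least 5 RPM in 2 of the 22 embryo libraries (12567) were fitted with 1 mean per group in limma 3.58.1 (lmFit, eBayes with trend), leaving 11 degrees of freedom (median residual SD 0.27). A gene could pass this filter only through groups in which it is high, and its p-values are then to be read with its levels. Adjusted p-values are Benjamini-Hochberg over all genes tested. A gene was called where the adjusted p was below 0.05 and the log2 fold change was at least 1 either way. The fit was tested on simulated data.

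There were 29 hand-written gene lists and 2 matched by gene name. The members and lists were chosen with earlier results of these data known. Named by rule are the 20 genes that changed most in each direction among those called (mean of at least 20 RPM, no overlap, no predicted names), the 8 each way with the largest difference of steps, Dppa3, Ddx4, and up to 8 called members of each list, plus members not called. Other list members are named after their values were seen. Symbols missing from the table (Meiosin, Ankrd31, Hbb-bt and Y-linked genes) were not analysed here. A few list members are not reported here.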

Additional observations from a re-analysis of the deposited data

Results flagged for a closer look

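The XX step differed from the XY step in a direct test for 4837 genes. Among genes that average 20 RPM or more in 1 of the XX groups and whose XX libraries do not overlap, the largest positive differences, XX step minus XY step on the log2 scale, were 5.63 for Mei1, 5.29 for Inca1, 5.06 for H2-Ab1, 4.76 for Mtl5, 4.74 for Ccne2, 4.64 for Kank3, 4.64 for Zfp672 and 4.60 for Stxbp5l. Kank3, an adaptor protein gene, had 63 and 90.9 RPM at E14.5, against 17.3 and 18.3 RPM at E13.5 in XX germ cells and 10.54 and 5.43 RPM at E14.5, against 53 and 50.5 RPM at E13.5 in XY germ cells. Stxbp5l had 19.14 and 24.9 RPM at E14.5, against 0.577 and 0 RPM at E13.5 in XX germ cells and 0 and 0.286 RPM at E14.5, against 1.27 and 0 RPM at E13.5 in XY germ cells. Like Mei1, H2-Ab1 and Ccne2, it passed the filter on low values only through XX libraries of E14.5 and E15.5.

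Under the same limits the largest negative differences were -6.45 for Phlda2, -5.54 for Mt2, -5.36 for Pdlim4, -5.31 for Cubn, -5.28 for Ddah1, -4.96 for Khdc1a, -4.89 for Nlrp4c and -4.71 for Fam132a. Pdlim4 had 19.7 and 6.03 RPM at E14.5, against 68.9 and 66 RPM at E13.5 in XX germ cells and 49.1 and 43.7 RPM at E14.5, against 6.66 and 4.6 RPM at E13.5 in XY germ cells. Cubn, an endocytic receptor, had 5.3 and 1.92 RPM at E14.5, against 22.2 and 20.5 RPM at E13.5 in XX germ cells and 11.1 and 9.43 RPM at E14.5, against 0.317 and 0.656 RPM at E13.5 in XY germ cells. Ddah1 was not called in the XX step (log2 fold change -0.58, SE 0.33, adjusted p = 0.138), nor was Fam132a (log2 fold change -1.12, SE 0.54, adjusted p = 0.0823), and for both the difference comes with a rise in XY germ cells (4.70 for Ddah1 and 3.59 for Fam132a). Nlrp4c belongs to a family of similar copies, with 2.65 and 1.37 RPM at E14.5, against 30.3 and 37.2 RPM at E13.5 in XX germ cells.

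The spike-in signal, which enters only the added scaling and no comparison as reported, was 3.25 times higher at E14.5 than at E13.5 in XX libraries, and 2.00 times higher in XY libraries. Its cause was not tested.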

How the results depend on the processing

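Of 74 recounts of called genes under the alternatives, 67 stayed within 1.5 times the main count, and the calls of the 50 genes named by rule for size or as reporter genes were the same in all 650 recomputed values, spike-in scaling not among them. Scaling to spike-in transcripts, chosen after seeing the data, gave 8999 called genes in XX germ cells, 347 higher and 8652 lower, against 4464, 2072 and 2392 as reported, and 6310 in XY germ cells, against 4060. On that scale 1147 of the 2072 genes that rose kept a positive change. Of the meiotic members, Sycp3 stayed higher at a log2 of 2.04, while Stra8 was at -0.55, an adjusted p of 0.331. A pseudocount of 5 RPM gave 1504 genes lower in XX germ cells and 2556 called in XY germ cells. A filter of 20 RPM, which tests fewer genes, gave 2672 called in XY germ cells.

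Leaving out each library in turn gave 4107 to 4310 genes called in the XX step, 1862 to 1986 higher and 2147 to 2337 lower, with 4381 to 4531 for the difference of steps and 3760 to 3859 for the XY step. With the replicate block, 2073 genes were higher and 2388 lower, 4461 in all, and the block gave 4835 for the difference and 4059 for the XY step. Replicate numbers pair the samples in name only: the deviations of same-numbered XX libraries correlated at -0.03, and over 55 pairs of groups at -0.07 to 0.05. Of 209 list genes called, 156 kept the call in every alternative other than spike-in scaling, and 53 lost it in at least 1. The median log2 change of the gonadal somatic cell list was -0.99 at the 20 RPM filter, against 0.35 as reported, and that of the fibroblast list was -1.21 there and -0.12 without E13.5 replicate 2, against 0.19. The median of the Polycomb list was 0.05 without E13.5 replicate 1, against -0.09, and that of the oocyte list, 0.00 as reported, ran from -0.11 to 0.05. As 3 reads are 0.822 to 0.962 RPM, changes of genes at a few RPM rest on few reads.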

Other observations

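Among 10 tested stress response genes, 2 rose and 1 fell. Egr1, an immediate early transcription factor, had 18.6 and 10.1 RPM at E14.5, against 2.88 and 6.41 RPM at E13.5 (log2 fold change 1.46, SE 0.42, adjusted p = 0.00552), a call that ended in 4 alternatives, among them without replicate 1 of either stage. Atf3, a stress-induced transcription factor, had 1.47 and 6.3 RPM at E14.5, against 0.577 and 0 RPM at E13.5 (log2 fold change 1.76, SE 0.52, adjusted p = 0.00626), a call that also ended in 4 alternatives, among them without replicate 2 of either stage. Atf4, the effector of the integrated stress response, fell, with 2.94 and 4.11 RPM at E14.5, against 11.53 and 11.2 RPM at E13.5 (log2 fold change -1.46, SE 0.30, adjusted p = 0.000265), a call that ended at a pseudocount of 5 RPM. Fos had 35.9 and 19.2 RPM at E14.5, against 26 and 31.1 RPM at E13.5, with overlapping libraries, and Dnajb1, a heat shock chaperone, had 146 and 161 RPM at E14.5, against 138 and 137 RPM at E13.5.

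Some oocyte and germ cell genes stood apart between the sexes. Sohlh2, a transcription factor of early oocytes, had 158 and 125 RPM at E14.5, against 158 and 179.6 RPM at E13.5 in XX germ cells and 10.8 and 8 RPM at E14.5, against 120.3 and 97.8 RPM at E13.5 in XY germ cells, and the steps differed by 3.15 on the log2 scale (SE 0.35, adjusted p = 1.27e-07). Sohlh1, its partner, had 0.294 and 1.92 RPM at E14.5, against 1.73 and 0.321 RPM at E13.5 in XX germ cells. In XY germ cells Sohlh1 had 79.8 and 98 RPM at E14.5, against 0 and 0 RPM at E13.5. Sohlh1 is given by level only, since its XX values at both stages lay below the filter of 5 RPM. Piwil4, a nuclear PIWI protein of fetal male germ cells, had 1.18 and 1.37 RPM at E14.5, against 9.52 and 9.3 RPM at E13.5 in XX germ cells and 269.6 and 270.1 RPM at E14.5, against 17.1 and 16.4 RPM at E13.5 in XY germ cells, a difference of -6.13 (SE 0.48, adjusted p = 7.97e-10). These genes were singled out after their values were seen.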
